A study of Gallus gallus with 6 samples.

Results

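The genes described here encode ubiquitin ligase proteins named RNF (RING finger), FBXL, FBXO or FBXW (F-box), CUL (cullin) and TRIM (tripartite motif). They were chosen by their annotated symbol alone, with the germ granule gene RNF17 left out, and each gene was read from its brightest probe set. Of 13009 genes on the array, 144 met this rule, of which 59 were RNF, 47 F-box, 7 cullin and 31 TRIM genes. All 144 were tested, and 134 were above the background level in at least one cell type.

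The data came from one-colour Affymetrix arrays, 3 for primordial germ cells (PGC), which give rise to the gametes, and 3 for embryonic fibroblasts (CEF), all from chicken and all cultured. The PGC came from blood drawn at embryonic day 2.5 from the dorsal aorta, with 20 embryos behind each replicate, and grew in knockout DMEM to which human bFGF was added at 10 ng/ml. The CEF came from day 6.5 embryo bodies stripped of limbs and internal organs, with 5 embryos behind each replicate, and grew to passage 2 in DMEM and 10% FBS. Each RNA sample drew on 1500000 PGC or 6000000 CEF. Cell type, embryonic age, medium and preparation, with 20 min of trypsin given for CEF only, changed together and cannot be told apart. A passage number was given for CEF only, so time in culture could not be compared and may have differed too. No strain or sex was given in the labels used here.

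Ubiquitin ligases pick the proteins that are tagged with ubiquitin, most often for breakdown by the proteasome. A RING finger binds the ubiquitin-carrying enzyme directly, so RNF and most TRIM proteins can act as single-chain ligases. Cullins are scaffolds that hold a small RING protein at one end and a substrate receptor at the other, and F-box proteins are the receptors of CUL1 complexes, which they join through SKP1. In germ cells and early embryos such ligases are known for roles in the cell cycle, in chromatin and in the turnover of maternal proteins.

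Values were deposited log2 expression, and differences were PGC minus CEF with the standard error from limma over 3 arrays each. A gene was called at a Benjamini-Hochberg adjusted p under 0.05 together with at least a 2-fold difference. Each cell type had a background level, the 95th percentile of probe sets that have no gene symbol and whose identifiers lack the chicken prefix, at 1.68 in PGC and 1.97 in CEF. Where the lower cell type lay under it, the fold was given as "at least", setting the brighter group's mean against that level. In these bulk samples, fewer cells of a type and less RNA per cell cannot be told apart.

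The arrays carried the labelled cell types. The germ cell markers DAZL and DDX4 averaged 11.33 and 10.83 in PGC and lay under background in CEF, while 10 of 10 germ cell markers were called higher in PGC and 10 of 10 fibroblast markers higher in CEF. Over all genes the median SD was 0.0848 in PGC and 0.197 in CEF. The SD was larger in CEF for 124 of the 144 ligase genes and for 10744 of all 13009 genes. Markers of other cell types differed as well. Leukocyte markers were called higher in PGC for 2 of 16 and higher in CEF for 11, with a summed linear level of 163 to 172 on PGC arrays and 432 to 1265 on CEF arrays. The leukocyte surface phosphatase PTPRC averaged 2.55 in PGC and 6.98 in CEF, while the T cell marker CD3E and the lysozyme LYZ were under background in both. Muscle markers were called higher in PGC for 1 of 17 and higher in CEF for 6, with sums of 220 to 231 on PGC arrays and 1422 to 1701 on CEF arrays. The muscle regulators MYOD1 and MYOG averaged 1.98 and 2.68 in PGC and 2.13 and 3.21 in CEF, and neither was called. Neural markers were called higher in PGC for 4 of 9, with sums of 1049 to 1172 on PGC arrays and 93.5 to 106 on CEF arrays. The other 5 neural markers were not called and had differences below 0, and the median of the list was -0.21. Endothelial markers were called higher in CEF for 2 of 9, and erythroid markers in PGC for 1 of 9 and in CEF for 2. The part of these cells in the results on ligase genes was not tested.

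The ligase genes were called in both directions, in shares near or below those of all genes. With limma, 25 of 144 were called higher in PGC (17.4%) and 14 higher in CEF (9.72%), where the same rule called 17.6% and 14.9% of all 13009 genes. In either direction it called 27.1% of the ligase genes and 32.5% of all genes. The median difference was 0.05 over the ligase genes and -0.05 over all genes. All 3 PGC arrays lay above all 3 CEF arrays for 53 of the ligase genes and the reverse held for 44, while 47 overlapped. Over all genes those patterns made up 35.7% and 35.5%, or 71.2% together.

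Families differed in how many members were called, a description with no test. In the TRIM family 8 of 31 were higher in PGC (25.8%) and 5 in CEF (16.1%), where 17.6% and 14.9% of all genes were. The median absolute difference was 0.71 in the TRIM family, 0.50 in RNF, 0.40 in F-box and 0.28 in cullin genes, against 0.57 over all genes. In the RNF family 10 of 59 were higher in PGC (16.9%) and 4 in CEF (6.78%), and in the F-box family 5 of 47 (10.6%) went each way. Of the 7 cullins, 2 were higher in PGC. Arrays were also scaled to the bacterial spike-in controls bioB, bioC and bioD, which were lower on the PGC arrays by 0.97 on average. This put the median difference of all genes at 0.93, against -0.05 with the deposited values. The cre spike-in controls, not used for this scaling, differed by only -0.13, with means of 11.20 in PGC and 11.33 in CEF. Why the controls differed was not tested. Under spike-in scaling 74 ligase genes were called higher in PGC (51.4%) and 7 in CEF (4.86%), while 45.6% and 7.13% of all genes were. Of the called ligase genes, 91.4% were then higher in PGC, against 64.1% with the deposited values, and of all called genes 86.5%, against 54.3%. Every difference below is therefore relative to the deposited scale.

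**Figure D1:**
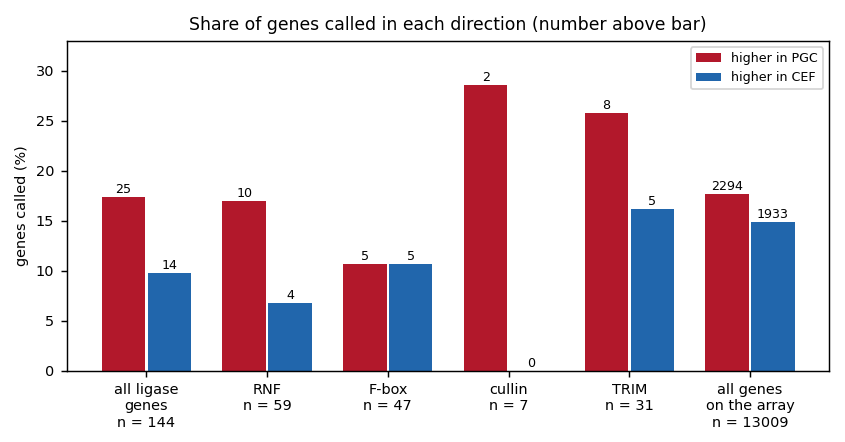
Bars give the share of genes called (percent) higher in PGC and higher in CEF, for all 144 ligase genes, for each family and for all 13009 genes, with the number of genes above each bar. The ligase genes as a whole reach 17.4% and 9.72%, against 17.6% and 14.9% of all genes, and the TRIM family has the tallest pair of bars among the families with more than 7 genes.

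**Figure D2:**
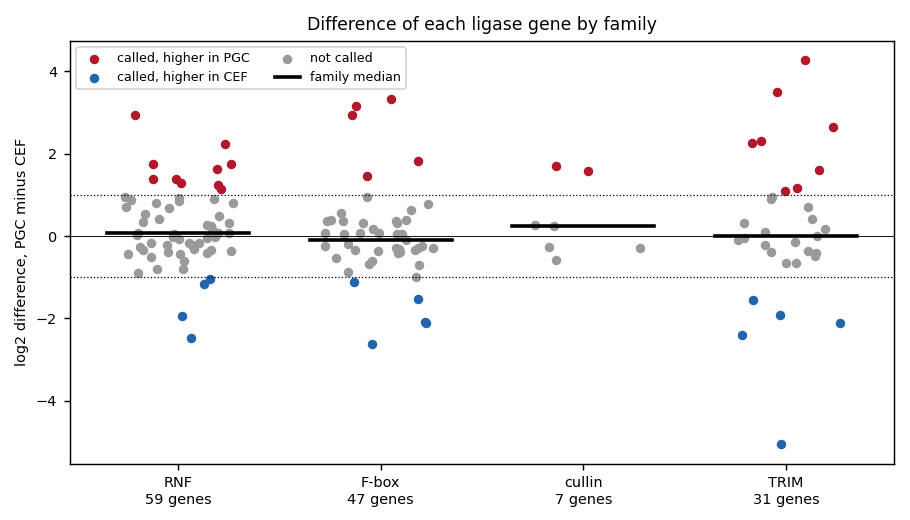
Each point is the log2 difference (PGC minus CEF) of one ligase gene by its brightest probe set, in columns by family, coloured by call, with the family median as a bar and dotted lines at a 2-fold difference. The extremes are both TRIM genes, TRIM24 at 4.28 and TRIM25 at -5.06, and most RNF, F-box and cullin genes lie inside the dotted lines.

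Among the cullins, CUL4B and CUL1 were higher in PGC. CUL4B, the scaffold that joins DDB1 and the DCAF receptors, had values of 8.23, 8.24 and 7.95 on the PGC arrays and 6.59, 6.28 and 6.43 on the CEF arrays. All 3 PGC arrays lay well above the CEF arrays, a 3.26-fold difference (1.70 ± 0.13, adjusted p = 7.0e-06). CUL1, the scaffold of F-box complexes, had 7.67, 7.52 and 7.60 in PGC against 5.90, 6.03 and 6.12 in CEF, 2.99-fold apart (1.58 ± 0.11, adjusted p = 4.3e-06). The CUL1 call rests on a probe set marked as shared between transcripts, and its other, dimmer probe set differed by 0.18. As the mean of all probe sets neither was called, with CUL1 at 0.88 and CUL4B at 0.99. Of the 7 probe sets of CUL4B, 3 were called, by 1.70 to 2.70.

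Other cullins were not called. CUL4A, the close relative of CUL4B, had 5.01, 4.98 and 5.06 in PGC and 5.13, 4.70 and 4.46 in CEF, with overlapping groups (0.26 ± 0.18, adjusted p = 0.27). CUL5, the scaffold of SOCS-box receptors, differed by 0.26 ± 0.13 on its brightest probe set, although a second probe set was called at 1.85. On that second probe set the CEF arrays were at 1.67, 2.31 and 2.72. CUL2, the scaffold of the VHL complex (-0.27 ± 0.15), and CUL3, which carries BTB receptors (-0.28 ± 0.17), had overlapping arrays, and turned to 0.70 and 0.69 after spike-in scaling. CUL9, known for its binding of p53 in mammals, passed the adjusted p but not the 2-fold minimum, with its CEF arrays above its PGC arrays (-0.58 ± 0.14, adjusted p = 0.0085), and turned to 0.40 after that scaling. In the direction of CEF, 1 of the 7 cullins had an unadjusted p under 0.05. Of all 13009 genes, 4227 were called and 4526 others had such a p, in either direction.

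Among the F-box genes higher in PGC, FBXO15 had the largest difference. FBXO15, known in the mouse as a transcript of undifferentiated embryonic stem cells, had 5.32, 5.04 and 5.27 in PGC and 2.28, 1.56 and 1.76 in CEF. Its CEF mean of 1.87 lay under background while every PGC array lay above it, which makes it at least 9.42-fold higher (3.34 ± 0.20, adjusted p = 2.2e-06). FBXL2, a membrane-anchored receptor, had 4.62, 4.47 and 4.79 in PGC against 1.50, 2.01 and 0.87 in CEF, at least 6.28-fold higher (3.16 ± 0.27, adjusted p = 1.6e-05). The other probe sets of FBXL2 were dim in both cell types, and the mean of all its probe sets differed by 0.87, under the 2-fold minimum.

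FBXO3, a receptor studied in inflammation in mammals, rested on uneven PGC arrays. It had 3.30, 3.14 and 5.33 in PGC and 1.01, 0.92 and 1.01 in CEF, so that PGC replicate 3 stood about 2 log2 units above the other two. It was at least 3.86-fold higher (2.94 ± 0.50, adjusted p = 0.0012), and without PGC replicate 3 the difference was 2.24. FBXO34 was 3.55-fold higher, with 6.76, 6.76 and 6.82 in PGC and 5.08, 4.94 and 4.84 in CEF (1.83 ± 0.12, adjusted p = 3.2e-06). Both of its probe sets were called, and both are marked as shared. FBXO39 had 5.21, 5.11 and 5.03 in PGC and 3.35, 3.94 and 3.71 in CEF (1.45 ± 0.17), but came to 0.77 as the mean of its 4 probe sets.

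F-box genes higher in CEF included receptors known from muscle and nerve, 3 of 7 measured (42.9%), where 14.9% of all genes were. FBXO45, which forms a neuronal ligase with the large RING protein MYCBP2, had 5.00, 4.81 and 4.51 in PGC and 7.25, 7.47 and 7.44 in CEF. It was 6.13-fold higher in CEF (-2.62 ± 0.15, adjusted p = 1.7e-06), with both probe sets called and the groups far apart. The neural markers were mixed, with 4 of 9 called higher in PGC and a median difference of -0.21. FBXO25, a relative of the muscle protein FBXO32, had 4.61, 4.70 and 4.77 in PGC against 6.61, 7.21 and 6.56 in CEF, 4.28-fold (-2.10 ± 0.18, adjusted p = 2.0e-05). FBXO32 itself, the atrophy ligase atrogin-1, had 3.41, 3.49 and 3.42 in PGC and 4.83, 4.92 and 5.12 in CEF, 2.86-fold (-1.52 ± 0.14, adjusted p = 2.5e-05), a call that ended after spike-in scaling (-0.55). Beside both stand the muscle markers, 6 of 17 higher in CEF, with MYOD1 and MYOG not called.

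FBXL8 and FBXO44 completed the F-box genes higher in CEF. FBXL8 had 3.96, 3.71 and 3.94 in PGC and 6.13, 5.84 and 5.94 in CEF, 4.28-fold (-2.10 ± 0.14, adjusted p = 4.2e-06). FBXO44, of the group of F-box proteins that includes receptors for glycoproteins, had 3.77, 3.54 and 3.59 in PGC and 4.51, 4.97 and 4.75 in CEF (-1.11 ± 0.16, adjusted p = 0.00046). Its difference sat at the 2-fold minimum, and the call ended without CEF replicate 2, just short of that minimum, and after spike-in scaling (-0.14).

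Cell cycle F-box genes were mostly not called, and so were most of all genes, of which 32.5% were called. Besides FBXL2, 7 measured members of a list of 8 did not pass. Whether this short list differed from all genes was not tested. FBXW7, the receptor for cyclin E and MYC, came closest, with 6.37, 6.52 and 6.38 in PGC and 7.65, 7.50 and 7.08 in CEF. All its CEF arrays were above its PGC arrays, and it missed the 2-fold minimum by the second decimal (-0.99 ± 0.15, adjusted p = 0.0007), passing it without PGC replicate 2 (-1.04), without CEF replicate 3 (-1.15), after 75th percentile centring (-1.11) and after quantile normalization (-1.07). FBXO5 and FBXO43, the inhibitors of the anaphase-promoting complex also called EMI1 and EMI2, were under background in both cell types (0.36 ± 0.20 and 0.07 ± 0.13), and at such levels a difference was not detectable. FBXO31, a receptor for cyclin D1, differed by -0.86 ± 0.26 with CEF replicate 3 well under the others (4.46, 4.24 and 3.41), and was called at -1.17 without it. FBXO4 (0.07 ± 0.14), FBXO22 (-0.28 ± 0.10) and the clock protein FBXL21 (0.32 ± 0.15) did not pass the 2-fold minimum.

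Of the F-box genes known from muscle and nerve that were not called, FBXO7, linked to parkinsonism in humans, lay just inside the 2-fold minimum with its PGC arrays above its CEF arrays (0.94 ± 0.12, adjusted p = 0.00019). Its second probe set was called at 1.17, and it was called without CEF replicate 1 (1.05) and as the mean of both probe sets (1.05). The muscle gene FBXO40 was under background in both (0.06 ± 0.13), and the neuronal genes FBXO41 (0.05 ± 0.16) and FBXL16 (0.05 ± 0.15) overlapped between the cell types. In the FBXW group no gene was called with limma, where 32.5% of all genes were. Of the 5, 2 had an unadjusted p under 0.05, both towards CEF. Of all 13009 genes, 4227 were called and 4526 others had such a p, in either direction.

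Of the RNF genes higher in PGC, RNF182 and RNF2 led. RNF182, a membrane protein first described in brain, had 5.34, 5.27 and 5.35 in PGC and 2.62, 1.93 and 2.55 in CEF, 7.74-fold apart (2.95 ± 0.20, adjusted p = 3.9e-06). The neural markers were mixed, with 4 of 9 called higher in PGC and a median difference of -0.21. RNF2, the catalytic RING1B subunit of Polycomb repressive complexes that ubiquitinates histone H2A, had 3.90, 3.86 and 4.0 in PGC and 1.53, 1.96 and 1.56 in CEF. Its CEF mean was under background, which makes it at least 3.85-fold higher (2.23 ± 0.16, adjusted p = 5.5e-06). A second, dim probe set of RNF2 differed by 0.17.

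DNA damage and chromatin ligases of the RNF family were higher in PGC for 3 of 9 measured, where 17.6% of all genes were. Besides RNF2 these were the double-strand break ligases RNF8, which starts the ubiquitin signal, and RNF168, which extends it. RNF168 had 4.50, 4.30 and 4.64 in PGC and 3.50, 2.79 and 3.02 in CEF, 2.60-fold (1.38 ± 0.20, adjusted p = 0.00051). RNF8 had 4.92, 4.88 and 4.88 in PGC and 3.49, 3.66 and 4.12 in CEF, 2.20-fold (1.14 ± 0.18, adjusted p = 0.00074), and fell just short of the minimum after quantile normalization (0.99). Both were read from their only probe set, and their PGC arrays lay above all CEF arrays.

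Another 6 of that list were not called. RNF20, which ubiquitinates histone H2B, was higher by less than the minimum (0.70 ± 0.12, adjusted p = 0.001). RNF4, which targets SUMO-tagged proteins, differed by 0.35 ± 0.09 on a bright probe set and was called at 1.64 on its other one. That other probe set had 4.62, 5.81 and 6.04 in CEF. RNF111, which is known for TGF-beta signalling (0.33 ± 0.11), RNF138 (0.41 ± 0.19), RNF169, a break-binding relative of RNF168 (-0.26 ± 0.12), and RNF126 (-0.61 ± 0.12) stayed under 2-fold. RNF126 and RNF169 turned sign after spike-in scaling.

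RNF membrane ligases changed singly. RNF150 and RNF130 belong to the Goliath-type ligases with a protease-associated domain, and went opposite ways. RNF150 had 4.87, 4.86 and 4.77 in PGC and 3.18, 2.69 and 3.36 in CEF, 3.38-fold higher in PGC (1.76 ± 0.19, adjusted p = 6.7e-05), with all 3 probe sets called. RNF130 had 7.68, 7.72 and 7.87 in PGC and 9.85, 9.74 and 9.49 in CEF, 3.83-fold higher in CEF (-1.94 ± 0.11, adjusted p = 1.3e-06), and stood at -0.96 after spike-in scaling, where its call ended.

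Of the other Goliath-type genes measured, RNF128, called GRAIL in T cells, had a difference of 0.96 ± 0.19 with PGC above CEF, RNF13 one of 0.27 ± 0.05, and RNF149 and RNF215 ones of -0.04 ± 0.11 and -0.16 ± 0.20. RNF13 passed the adjusted p (0.0036) with a difference far under 2-fold, and RNF149 and RNF215 overlapped. RNF128 turned to -0.21 on a probe set not marked as shared, a probe set under background in both cell types. On its brightest probe set it was called higher in PGC with array weights (1.03), without CEF replicate 1 (1.08) and without CEF replicate 3 (1.03).

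In the list of endoplasmic reticulum and other membrane ligases, 2 of 11 measured were higher in PGC, RNF182 and RNF170, a share of 18.2% that is near the 17.6% of all genes. RNF170, which marks inositol trisphosphate receptors for breakdown, had 8.51, 8.49 and 8.39 in PGC and 6.69, 6.85 and 6.60 in CEF, 3.37-fold (1.75 ± 0.10, adjusted p = 1.5e-06). Those not called were RNF5 (0.88 ± 0.11), RNF152 (0.81 ± 0.32), RNF145 (0.53 ± 0.19), RNF103 (0.07 ± 0.10), RNF122 (-0.01 ± 0.13), RNF19A, RNF139 (-0.35 ± 0.10), RNF175 (-0.44 ± 0.17) and RNF24 (-0.89 ± 0.15). RNF5, an ER-associated degradation ligase, and RNF145 passed the adjusted p towards PGC without the 2-fold minimum. RNF24, a Golgi protein, and RNF139 did so towards CEF. RNF24 was called higher in CEF after 75th percentile centring (-1.01), after quantile normalization (-1.03) and without CEF replicate 3, and turned to 0.084 after spike-in scaling. RNF152, a lysosomal regulator of amino acid signalling, was spread by CEF replicate 2 (3.01, 1.83 and 3.16 in CEF). Without that replicate RNF152 differed by 0.39. It was called at 1.05 without CEF replicate 3, which keeps the low array.

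RBR ligases, which pass ubiquitin through their own cysteine, had 1 of 7 measured higher in each cell type (14.3%). These shares were near the 17.6% and 14.9% of all genes higher in PGC and in CEF. RNF217 had 6.93, 6.98 and 6.61 in PGC and 5.37, 5.20 and 5.06 in CEF, 3.10-fold higher in PGC (1.63 ± 0.14, adjusted p = 2.3e-05). RNF19B, known from natural killer cells, had 2.31, 2.36 and 2.44 in PGC and 5.03, 4.74 and 4.77 in CEF, 5.56-fold higher in CEF (-2.47 ± 0.14, adjusted p = 1.7e-06). It was the largest difference towards CEF among the RNF genes, beside leukocyte markers that were higher in CEF for 11 of 16. RNF14, an androgen receptor partner, differed by 0.80 ± 0.12, RNF144A by 0.04 ± 0.21, RNF216 by -0.16 ± 0.11, and RNF144B, under background in both, by -0.22 ± 0.15.

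RNF19A, the relative of RNF19B, depended on the probe set. Its brightest probe set overlapped between the cell types (-0.21 ± 0.26), with CEF arrays at 4.90, 5.42 and 6.02, but 3 of its 5 probe sets were called higher in PGC, by 2.13 to 3.10. As the mean of all 5 it was called at 1.58. RNF19AL, annotated as a further relative, was called higher in CEF (-1.04 ± 0.15), with 3.84, 4.07 and 4.10 in PGC and 5.20, 5.02 and 4.90 in CEF. Its call ended without PGC replicate 1 or CEF replicate 1 (-0.96 in both), as the mean of its probe sets (-0.63), and after spike-in scaling (-0.068).

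Of the remaining RNF genes called, 3 were higher in PGC by 2- to 3-fold. RNF151, a testis-type ligase in the mouse, had 8.99, 8.94 and 8.90 in PGC and 7.76, 7.45 and 7.47 in CEF, 2.61-fold (1.38 ± 0.10, adjusted p = 7.1e-06), with both probe sets called. RNF207, studied in heart, had 5.65, 5.62 and 5.36 in PGC and 4.65, 4.28 and 3.84 in CEF (1.28 ± 0.21), and came to 0.77 as the mean of its probe sets. RNF6, known from spermatogenesis and androgen receptor signalling in mammals, had 6.28, 6.24 and 6.37 in PGC and 4.57, 4.99 and 5.61 in CEF (1.24 ± 0.24, adjusted p = 0.0024). The spread of RNF6 lay in CEF, and the call ended without CEF replicate 1.

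RNF165, a ligase that promotes BMP signalling in mouse neurons, was higher in CEF near background, with 1.79, 1.74 and 1.80 in PGC and 2.44, 3.21 and 3.19 in CEF (-1.17 ± 0.21, adjusted p = 0.0017). Its call ended after spike-in scaling (-0.20). The smallest differences among ligase genes above background in both cell types were those of RNF141 (-0.01 ± 0.17), RNF122, RNF144A, RNF149 and RNF208 (0.04 ± 0.14), all with overlapping arrays.

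The widest differences of all were in the TRIM family, one in each direction. TRIM24, a chromatin reader and nuclear receptor cofactor of the TIF1 group, had 8.20, 8.15 and 8.18 in PGC and 3.22, 4.0 and 4.48 in CEF. The PGC arrays lay close together and the CEF arrays spread over more than 1 log2 unit below, a 19.4-fold difference (4.28 ± 0.27, adjusted p = 3.1e-06), read from a single probe set marked as shared. TRIM25, an interferon-inducible ligase that acts on the RNA sensor RIG-I in mammals and ducks, a sensor that chickens lack, had 1.41, 1.40 and 1.15 in PGC and 6.52, 6.51 and 6.12 in CEF. All PGC arrays lay under background and all CEF arrays more than 4 log2 units above it, so CEF exceeded PGC by at least 25.9-fold (-5.06 ± 0.16, adjusted p = 7.2e-08). Its other probe sets were dim, with differences of -0.11 to -0.75, and none was called. RefSeq lists TRIM56 among the other names of this gene record.

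**Figure D3:**
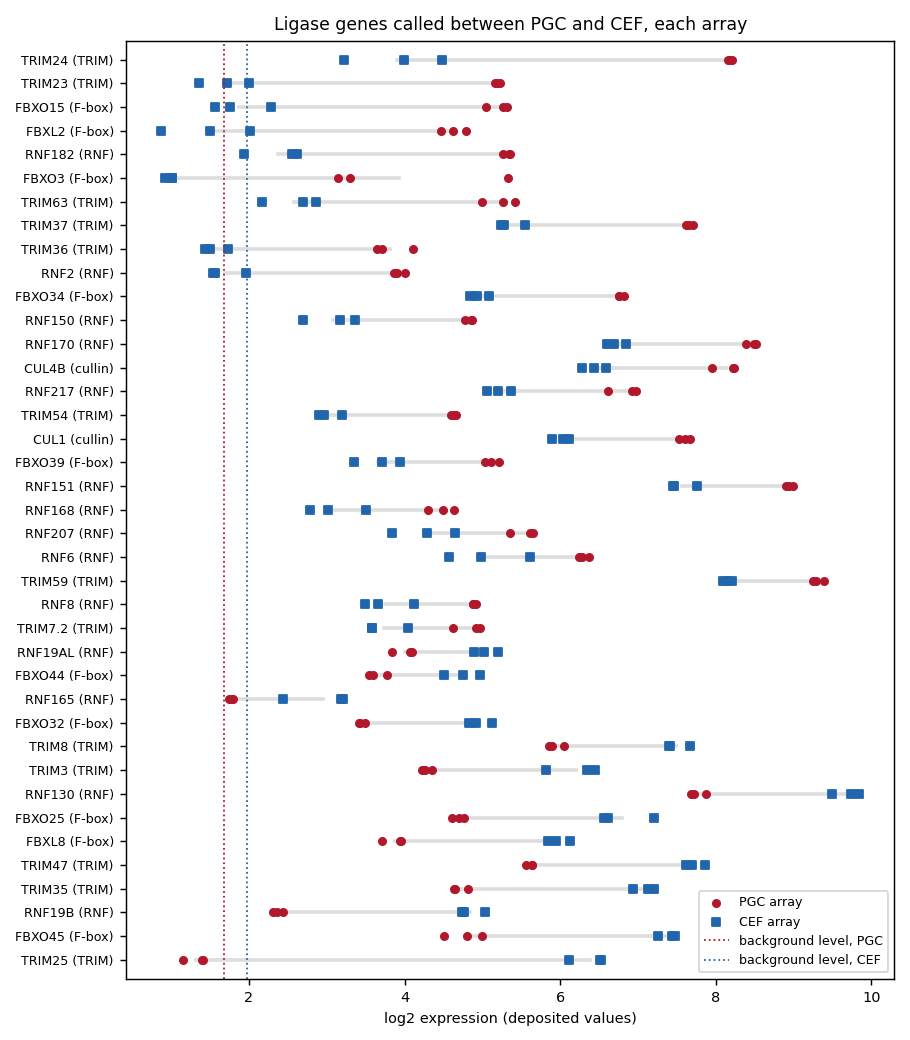
Each row is one of the 39 ligase genes called, with its family, ordered from the largest difference towards PGC at the top to the largest towards CEF at the bottom. Points are the log2 expression on the 3 PGC arrays (circles) and 3 CEF arrays (squares), bars join the group means, and dotted lines are the background levels. The groups do not overlap in any row, FBXO3 has 1 circle far from its other circles, and TRIM25 has all 3 PGC arrays under background.

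Of the 4 TIF1 genes only TRIM24 was called (25%, where 32.5% of all genes were), and the difference between it and the others was not tested. TRIM33, which binds SMAD proteins, had 5.59, 5.74 and 5.81 in PGC and 4.60, 4.72 and 5.12 in CEF, just under 2-fold (0.90 ± 0.16, adjusted p = 0.0017), and was called without CEF replicate 3 (1.06). TRIM28, the corepressor KAP1, lay near background in both (0.43 ± 0.16), on a probe set whose gene record was not matched in the RefSeq table. TRIM66, a testis TIF1 protein in mammals, differed by -0.65 ± 0.24 and turned to 0.32 after spike-in scaling.

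Of 6 measured TRIM genes that bind microtubules 3 were higher in PGC, where 17.6% of all genes were, and none was called higher in CEF. The list includes the 3 muscle RING finger genes, of which 2 were higher in PGC. TRIM63, the muscle atrophy ligase MuRF1, had 5.00, 5.42 and 5.27 in PGC and 2.69, 2.87 and 2.17 in CEF, 6.28-fold (2.65 ± 0.21, adjusted p = 1.0e-05). TRIM54, its relative MuRF3, had 4.66, 4.60 and 4.63 in PGC and 2.97, 2.90 and 3.19 in CEF, 3.06-fold (1.61 ± 0.14, adjusted p = 1.8e-05). Both moved opposite to the muscle marker list, of which 1 of 17 was higher in PGC and 6 in CEF. Each rests on 1 probe set, a further probe set annotated to both genes was not used, and the TRIM54 gene record was not matched in the RefSeq table.

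TRIM55, the remaining muscle RING finger gene, was not called and leaned the other way (-0.47 ± 0.15), with 0.50 after spike-in scaling. TRIM36, which anchors microtubules in the vegetal cortex of the frog egg, had 4.10, 3.64 and 3.71 in PGC and 1.49, 1.73 and 1.44 in CEF. It was at least 3.59-fold higher in PGC (2.26 ± 0.17, adjusted p = 7.4e-06), on a probe set marked as shared. Of its 5 probe sets 2 were called, the dimmer of them near background in PGC. The mean of all 5 differed by 0.80 and the brightest unshared one by 0.38, and the call of TRIM36 ended under either choice. TRIM9 and TRIM42 were under background in both cell types (-0.04 ± 0.21 and -0.14 ± 0.15).

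TRIM23 and TRIM37 were higher in PGC as well. TRIM23, which carries an ARF-type GTPase domain, had 5.19, 5.16 and 5.23 in PGC and 1.35, 1.72 and 2.00 in CEF, at least 9.31-fold (3.50 ± 0.18, adjusted p = 8.6e-07), while its other probe sets were dim in both. TRIM37, a ligase of centrosomes and chromatin that is lost in the human growth disorder mulibrey nanism, had 7.61, 7.71 and 7.66 in PGC and 5.55, 5.24 and 5.28 in CEF. It was 4.93-fold higher (2.30 ± 0.12, adjusted p = 9.2e-07). All 3 of its probe sets were called, by 2.17 to 2.90, and all are marked as shared.

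TRIM59 had the smallest errors of the TRIM calls, with 9.29, 9.25 and 9.39 in PGC and 8.21, 8.09 and 8.14 in CEF, 2.24-fold (1.16 ± 0.08, adjusted p = 3.3e-06). TRIM7.2, of the major histocompatibility region, had 4.92, 4.63 and 4.97 in PGC and 3.59, 3.59 and 4.05 in CEF (1.10 ± 0.18), on a shared probe set. Its unshared probe set differed by -0.32, so the direction of TRIM7.2 depends on the probe set, and the call also ended after either 75th percentile centring (0.98) or quantile normalization (0.95).

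Among TRIM genes known from innate immunity, 2 of 12 measured were higher in PGC, TRIM23 and TRIM59, and 3 were higher in CEF, TRIM25, TRIM35 and TRIM8, where 17.6% and 14.9% of all genes were. TRIM35 had 4.65, 4.63 and 4.81 in PGC and 6.94, 7.21 and 7.14 in CEF, 5.26-fold (-2.40 ± 0.13, adjusted p = 1.0e-06). A second shared probe set of TRIM35 was called at -2.82, while its brightest unshared one differed by -0.31. TRIM8, which regulates cytokine signalling through SOCS1, had 5.86, 5.90 and 6.05 in PGC and 7.67, 7.42 and 7.40 in CEF, 2.94-fold (-1.56 ± 0.12, adjusted p = 9.0e-06), or -0.59 and no longer called after spike-in scaling. These stand beside leukocyte markers that were higher in CEF for 11 of 16, and their part was not tested.

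Those of the list that were not called were TRIM13 (0.71 ± 0.12), TRIM14 (0.31 ± 0.17), TRIM41 (0.11 ± 0.14), TRIM7.1 (-0.10 ± 0.16), TRIM39.2 (-0.21 ± 0.14), TRIM65 (-0.36 ± 0.13) and TRIM29 (-0.39 ± 0.20). Of these TRIM13, an ER ligase, had all PGC arrays above all CEF arrays, and TRIM65 the reverse, and the other 5 overlapped.

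TRIM47 and TRIM3 were higher in CEF. TRIM47 had 5.64, 5.57 and 5.63 in PGC and 7.86, 7.69 and 7.61 in CEF, 4.31-fold (-2.11 ± 0.11, adjusted p = 9.0e-07), on 1 of its 2 probe sets. TRIM3, of the TRIM-NHL group named after a repeat domain at its end, had 4.23, 4.35 and 4.27 in PGC and 5.82, 6.45 and 6.35 in CEF, 3.80-fold (-1.92 ± 0.18, adjusted p = 3.0e-05), with 3 of 5 probe sets called. Its call ended after spike-in scaling (-0.95). TRIM2, the paralog of TRIM3, leaned the other way by slightly less than 2-fold, with 6.32, 6.31 and 6.25 in PGC and 5.20, 5.13 and 5.74 in CEF (0.94 ± 0.17, adjusted p = 0.0018), and was called at 1.13 without CEF replicate 3.

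Probe sets of one ligase gene often disagreed in size, but not in the direction of their calls. Such agreement was not counted over the 7334 genes of the array with several probe sets. It is therefore not read as a trait of ligase genes. Of the 310 probe sets of ligase genes 18.1% were called in the direction of PGC and 7.74% of CEF, against 14.6% and 10.1% of all 38439 probe sets. Of the 144 genes, 59 had 1 probe set and 85 had several, and among the 85 no gene had probe sets called in both directions. That holds with the 2-fold minimum. Under it, probe sets of CUL3 (-0.62 and 0.69), FBXO21 (0.79 and -0.48) and RNF212B (-0.43 and 0.65) passed the adjusted p in opposite directions. The same held for RNF145 (0.53 and -0.33) and TRIM13 (0.71 and -0.54). Other genes had an uncalled probe set that passed the adjusted p opposite to a called one. They were FBXO11 (-0.60 against 1.81), FBXO22 (0.76 against -1.41), FBXW5 (-0.40 against 1.49) and RNF216 (-0.31 against 1.04). In 43 of the 85 no probe set was called, in 5 every probe set was, and in the other 37 called and uncalled probe sets stood side by side. For 17 genes the brightest probe set was not called but another was. These genes were picked out after their values were seen, and comprise CUL2, CUL5, FBXL17, FBXL18, FBXL21, FBXO7, FBXO11, FBXO22, FBXO30, FBXO33, FBXW5, FBXW8, RNF114, RNF19A, RNF216, RNF4 and RNF7. The called probe sets of FBXL18 (-1.02 and -1.18) and FBXO22 (-1.41) were higher in CEF and those of the rest in PGC. Of the ligase genes called on their brightest probe set, 12 were read from one marked as shared. They were CUL1, FBXO32, FBXO34, RNF6, TRIM3, TRIM7.2, TRIM24, TRIM35, TRIM36, TRIM37, TRIM54 and TRIM59.

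Besides RNF19A, such gaps were seen in several F-box genes. FBXO30 had a brightest probe set that differed by 0.64 ± 0.12 and another that differed by 2.69, and FBXL17 had ones of 0.40 and 2.50. FBXO11, a receptor for BCL6 in mammals, had a brightest probe set leaning to CEF (-0.60 ± 0.10, adjusted p = 0.00095) and called ones of 1.35 and 1.81 towards PGC. FBXW5 (-0.28 ± 0.12) and FBXW8 (0.31 ± 0.15), the receptor that pairs with CUL7 in mammals, had called probe sets of 1.49 and 1.48. RNF7, the small RING subunit of CUL5 complexes, differed by 0.50 ± 0.16 on its brightest probe set and by 1.41 on a called one. RNF114 (0.69 and 1.21) and FBXO33 (0.40 and 1.58) followed the same pattern. In the genes whose brightest probe set was not called, CEF replicate 1 was the lowest CEF array on many probe sets called towards PGC. On some it lay well under the others. The CEF values were 1.57, 3.38 and 3.94 for FBXO11 (at 1.81), 1.58, 3.07 and 3.88 for FBXO30 (at 2.69), and 2.51, 3.23 and 4.28 for FBXO33 (at 1.58). CEF replicate 1 was also the lowest on called probe sets of CUL2, CUL5, FBXL17, FBXL21, FBXW5, RNF114 and RNF4. The same held for RNF19A (at 2.13 and 3.10) and FBXW8 (at 1.19). It was instead the highest in CEF for FBXW8 (at 1.48), RNF7 (at 1.41), RNF216 (at 1.04), FBXO30 (at 1.50) and RNF19A (at 2.98). For FBXO7 (at 1.17) CEF replicate 1 lay between the others. Whether such probe sets read different transcripts, and what part this array had, was not tested.

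**Figure D4:**
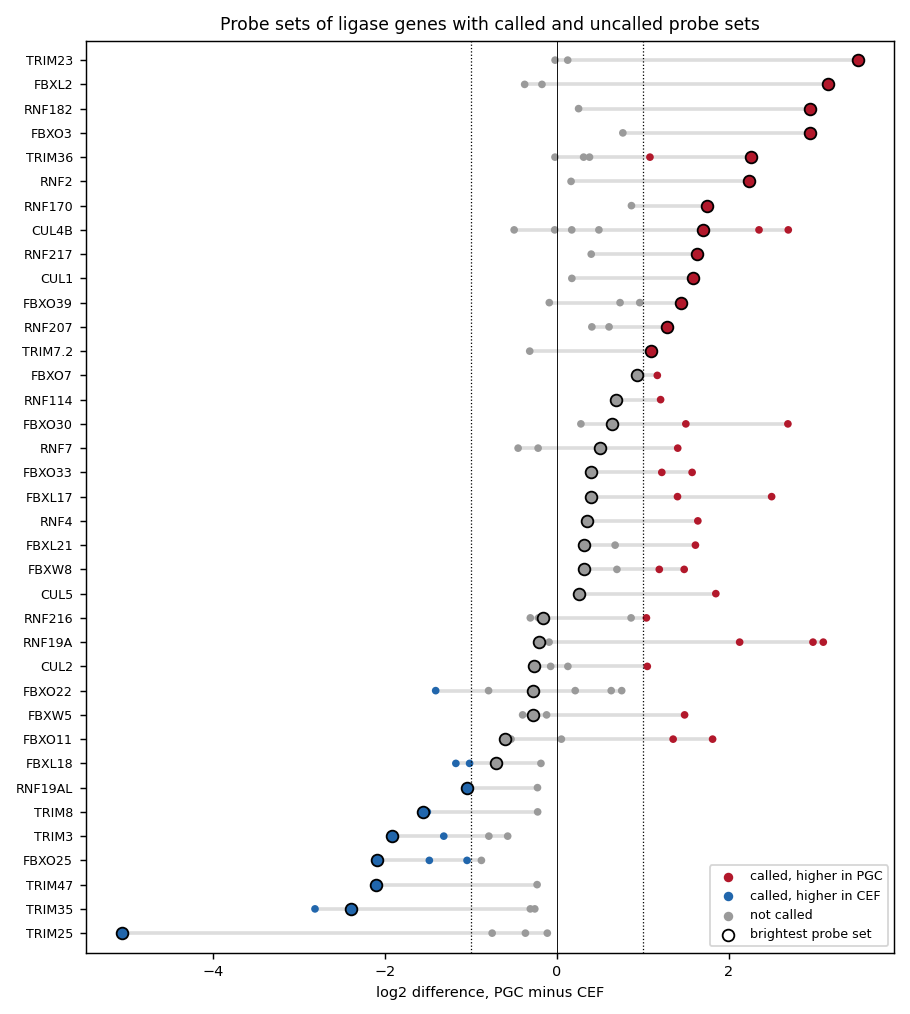
Each row is one of the 37 ligase genes that have both called and uncalled probe sets, and each point is one probe set's log2 difference (PGC minus CEF), coloured by call, with the brightest one ringed and dotted lines at a 2-fold difference. For 17 genes the ring is grey while another point is coloured, RNF19A spans from -0.21 to 3.10, and no row holds both call colours.

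Position in the genome was used through the order of protein-coding genes in RefSeq's GRCg7b annotation, without coordinates. Among 15 pairs of ligase genes with at most 9 coding genes between them, no pair was called in the same direction. Since only 17.4% of ligase genes were called higher in PGC and 9.72% in CEF, so few pairs cannot show a trait of neighbours. FBXO45 and RNF168 lie with 1 coding gene between them and were called in opposite directions (-2.62 and 1.38). TRIM65 and TRIM47 are adjacent, and TRIM65 was not called (-0.36) while TRIM47 was (-2.11). In the histocompatibility region TRIM7.2, TRIM7.1, TRIM39.2, TRIM27.2, TRIM27.1 and TRIM41 follow each other with at most 4 coding genes between neighbours. Of these 6 only TRIM7.2 was called, where 32.5% of all genes were. TRIM27.2 differed by 0.16 ± 0.15, and TRIM27.1, under background in PGC, by -0.66 ± 0.13.

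The partners of these ligases were read from 7 lists of genes with other names. Of 11 measured core partners of cullin complexes and F-box proteins with other names, 4 were higher in PGC and 1 was higher in CEF, where 17.6% and 14.9% of all genes were, and the median difference was 0.38. CCNF, the F-box protein cyclin F, was 7.44-fold higher in PGC (2.90 ± 0.15), KDM2B, an F-box histone demethylase of a Polycomb complex, 6.37-fold (2.67 ± 0.20), and TSPAN17, once named as an F-box protein, at least 5.90-fold (2.57 ± 0.29). LMO7, a LIM-domain protein of cell junctions that once carried an F-box name, was 126-fold higher in CEF (-6.98 ± 0.18, adjusted p = 2.1e-08).

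Neddylation and cullin exchange genes, which switch cullins on and swap their receptors, were higher in PGC for 3 of 15 measured (20.0%), near the 17.6% of all genes, with a median of 0.62. SENP8, the protease that matures NEDD8, was 7.91-fold higher (2.98 ± 0.35), and the E2 enzymes CDC34 (1.65 ± 0.18) and UBE2G1 (1.46 ± 0.11), which serve CUL1 and other cullins, were higher as well. With limma no member was called higher in CEF, where 1 had an unadjusted p under 0.05. In the COP9 signalosome, which removes NEDD8 from cullins, 1 of 9 was higher in PGC and 1 in CEF. These made up 11.1% each, against 17.6% and 14.9% of all genes. COPS8 was at the 2-fold minimum (1.01 ± 0.09), a call that ended under 75th percentile centring (0.88), and COPS7A was 3.53-fold higher in CEF (-1.82 ± 0.10), or -0.84 and not called after spike-in scaling.

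BTB adaptors of CUL3 were higher in PGC for 12 of 32 measured and higher in CEF for 2, where 17.6% and 14.9% of all genes were called, with a median of 0.11. TNFAIP1, an adaptor for the GTPase RHOA, was 6.49-fold higher in PGC (2.70 ± 0.12), SPOPL 6.39-fold (2.68 ± 0.28) and KCTD5 5.20-fold (2.38 ± 0.30). In CEF, KLHL5 was 11.4-fold higher (-3.51 ± 0.11, adjusted p = 6.6e-08) and RHOBTB3 2.42-fold (-1.28 ± 0.22). CUL3 itself, their scaffold, was not called.

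DCAF, SOCS-box and VHL-type receptors were higher in PGC for 13 of 47 measured and higher in CEF for 10, or 27.7% and 21.3% against 17.6% and 14.9% of all genes, and their median difference was -0.05. In PGC, BRWD3 was 5.81-fold (2.54 ± 0.32), DCAF17 4.76-fold (2.25 ± 0.14) and DCAF10 4.30-fold higher (2.10 ± 0.17). In CEF, ASB9 was 18.3-fold (-4.20 ± 0.23) and the cytokine feedback inhibitors SOCS3 and SOCS1 were 6.14-fold (-2.62 ± 0.23) and 5.18-fold higher (-2.37 ± 0.16). Subunits of the anaphase-promoting complex, a cullin-type ligase of mitosis, were higher in PGC for 7 of 14 measured, against 17.6% of all genes, led by ANAPC10 (1.99 ± 0.19), ANAPC7 (1.69 ± 0.13) and the activator CDC20 (1.60 ± 0.09). With limma none was called higher in CEF, where 1 had an unadjusted p under 0.05.

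RING ligases with other names were higher in PGC for 16 of 77 measured and higher in CEF for 10, their median being 0.16. These shares of 20.8% and 13.0% were near the 17.6% and 14.9% of all genes. In PGC the signalling adaptor TRAF5 was at least 7.68-fold higher (3.90 ± 0.13), and the paired DNA repair ligases BARD1 and BRCA1, which act after RNF8 and RNF168 at breaks, were 9.67-fold (3.27 ± 0.30) and 8.53-fold higher (3.09 ± 0.15). In CEF, MDM2, the ligase of p53, was 7.48-fold (-2.90 ± 0.23), LRSAM1 5.24-fold (-2.39 ± 0.13) and ARIH1, an RBR ligase that works with neddylated cullins, 3.68-fold higher (-1.88 ± 0.15). As the mean of their probe sets MDM2 (-0.69) and ARIH1 (-0.83) were not called, and neither were ANAPC7 (0.72), BRWD3 (0.91) and RHOBTB3 (-0.81).

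**Figure D5:**
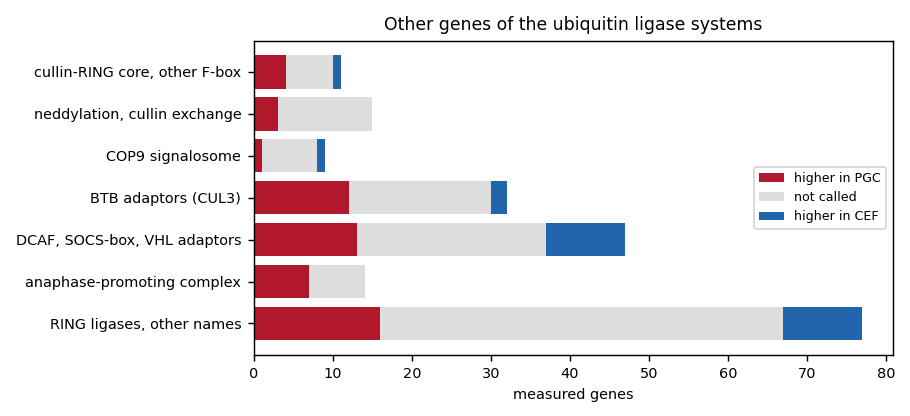
Each bar is one list of partner or related genes that are not RNF, F-box, cullin or TRIM genes by name, with the number of measured genes higher in PGC, not called, and higher in CEF from left to right. The anaphase-promoting complex has 7 of 14 genes higher in PGC, BTB adaptors have 12 of 32, and DCAF, SOCS-box and VHL adaptors are close to evenly split at 13 and 10 of 47.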

How the data were processed

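Cultured PGC and CEF had been measured on 3 arrays each. Titles gave the groups and replicate numbers and described the replicates as biological. The deposited values of 38535 probe sets were read as log2 expression already normalized between arrays. The base was read from the values. MAS5 and GCOS are named in the submitters' processing notes, with no version or role, and how background was corrected is not stated in what was used here.

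The 96 AFFX controls were left out. PGC and CEF were compared over 38439 probe sets with limma 3.58.1 in R 4.3.3 (lmFit, eBayes with trend, two-sided, cell type only), with Benjamini-Hochberg adjustment over all of them. The fit was tested on simulated data. In the probe set annotation 27178 probe sets had 1 gene symbol, 177 several and 11180 none. For 139 of the 144 genes the symbol matched the RefSeq table, and 5 gene records were not found in it. The background level came from 687 probe sets with no symbol whose identifiers lack the chicken prefix. The number of arrays, with 4 residual degrees of freedom, limits the precision.

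Genes were named by rule: every cullin, the 8 largest calls per other family and direction, every measured gene of 13 role lists, the 5 smallest differences, calls that ended under an alternative, and the 3 largest calls per direction of 7 partner lists. Of 458 list entries 374 were matched, 13 through a synonym that need not be the same gene. Members, lists and rules were chosen with earlier results of these data known. Alternatives covered 3 other scalings, array weights, no trend, treat, 2 other ways to choose probe sets, a filter on dim probe sets, a stricter threshold, a replicate block and leaving out each array. No scan dates were given, so no batch was tested.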

Additional observations from a re-analysis of the deposited data

How the results depend on the processing

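Of the 39 ligase genes called, 20 (14 higher in PGC and 6 in CEF) were called in every one of the 17 alternatives in which they were tested. Spike-in scaling raised the ligase genes called higher in PGC to 74 and left 7 higher in CEF (RNF 32 and 1, F-box 23 and 3, TRIM 15 and 3), with a median difference of 1.02. Testing against a 2-fold difference with treat left 6 RNF genes higher in PGC and 2 in CEF. Unshared probe sets left 2 TRIM genes higher in PGC. TRIM36 and TRIM7.2 lost their calls there, while TRIM24, TRIM37, TRIM54 and TRIM59 had no unshared probe set and could not be tested. Leaving out 1 array at a time gave 25 to 29 ligase genes higher in PGC and 13 to 17 in CEF, for RNF 10 to 12 and 3 to 5, for F-box 5 to 6 and 4 to 7, and for TRIM 8 to 10 and 5. Spike-in scaling reversed CUL2 (0.70), CUL3 (0.69), CUL9 (0.40), FBXL18 (0.26), FBXO11 (0.37), FBXO22 (0.69), FBXO31 (0.11), FBXW5 (0.69), MYOD1 (0.82), MYOG (0.44), RNF122 (0.96), RNF126 (0.36), RNF139 (0.63), RNF141 (0.96), RNF144B (0.75), RNF149 (0.93), RNF169 (0.71), RNF175 (0.53), RNF19A (0.76), RNF215 (0.81), RNF216 (0.81), RNF24 (0.084), TRIM29 (0.59), TRIM39.2 (0.76), TRIM42 (0.84), TRIM55 (0.50), TRIM65 (0.61), TRIM66 (0.32), TRIM7.1 (0.87) and TRIM9 (0.93). Taking the mean of all probe sets reversed CUL2 (0.21), FBXO11 (0.42), FBXO40 (-0.0039), FBXW5 (0.17), RNF149 (0.072), RNF19A (1.58), RNF208 (-0.13), RNF216 (0.25) and TRIM13 (-0.035). Centring on the 75th percentile reversed FBXL16 (-0.071), FBXO4 (-0.049), FBXO40 (-0.062), FBXO41 (-0.068), FBXO43 (-0.053), RNF103 (-0.052), RNF144A (-0.084), RNF208 (-0.082) and TRIM41 (-0.011). Quantile normalization reversed FBXL16 (-0.10), RNF208 (-0.0077) and TRIM9 (0.046). Using the brightest unshared probe set reversed FBXO22 (0.21), RNF128 (-0.21), RNF149 (0.18) and TRIM7.2 (-0.32). Array weights reversed RNF122 (0.011), RNF141 (0.020), RNF144A (-0.049), RNF149 (0.0024) and TRIM9 (0.041). Leaving out 1 array in turn reversed FBXL16 (-0.0053 to 0.16), FBXO4 (-0.055 to 0.14), FBXO40 (-0.012 to 0.18), FBXO41 (-0.080 to 0.15), FBXO43 (-0.045 to 0.15), MYOD1 (-0.32 to 0.011), RNF122 (-0.047 to 0.056), RNF141 (-0.16 to 0.16), RNF144A (-0.14 to 0.28), RNF149 (-0.13 to 0.053), RNF19A (-0.49 to 0.075), RNF208 (-0.039 to 0.13), RNF215 (-0.34 to 0.030), TRIM42 (-0.28 to 0.021) and TRIM9 (-0.29 to 0.18). Calls also ended under treat for FBXO39, FBXO44, RNF165, RNF168, RNF19AL, RNF207, RNF6, RNF8, TRIM59, TRIM7.2, COPS8 and RHOBTB3. Partner list counts under the same settings were added after seeing the data. Under spike-in scaling 45.6% of all genes were called higher in PGC. Partner genes so called numbered 8 for core partners, 12 for neddylation, 5 for COP9 and 23 for DCAF and SOCS receptors. The anaphase-promoting complex had 13 and other RING ligases 41. Counts for the BTB adaptors, and counts towards CEF, are not given here for that scaling. COPS8 was not called without PGC replicate 3, CEF replicate 2 or CEF replicate 3, which left no COP9 gene higher in PGC by limma. Same-numbered PGC and CEF replicates showed no shared deviation, with correlations of -0.04, -0.02 and 0.02. With so few arrays this cannot settle whether they were handled together. A replicate block called 25 genes higher in PGC and 14 in CEF, the same 25 and 14. Unshared probe sets could test 125 of the 144 genes and the filter on dim probe sets 134. Below background a difference could not be measured, and for 10 genes both cell types lay there. The causes of these changes were not tested.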
